A study of Mus musculus with 9 samples.

Results

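The erythroid regulators Gata1, Klf1, Tal1, Nfe2, Gfi1b, Zfpm1 and Lmo2 and the erythropoietin receptor gene Epor were followed in sorted bone marrow cells of mice with and without leukemia. These 8 genes were listed by name as regulators of red cell formation, and all 8 were found among the 18194 genes that the array represents. Each gene was read from the probe sets that carry its symbol alone, with the brightest over all arrays as the main one. RNA of bone marrow cells from FVB/NJ mice, sorted as negative for the leukocyte antigen CD45.1 and the red cell antigen Ter119 and labelled stromal, was measured on 9 Affymetrix 3' expression arrays. There were 3 arrays of wild-type mice (WT), 3 of leukemic recipients in which leukemic cells made up 1 to 5% of the marrow (E, the early phase) and 3 of recipients with 5 to 50% (M, the medium phase), and the labels name those of a group biological replicates. The leukemia model, the age of the mice and any pooling of animals are not given in the sources used here. Signals are on a log2 scale, so a difference of 1 is a doubling of signal, and their precision rests on 3 arrays a group.

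GATA1 is the zinc finger factor that switches on most genes of the red cell program, and FOG1, the product of Zfpm1, is its cofactor. TAL1 binds DNA next to GATA1 in a complex that LMO2 and LDB1 hold together, KLF1 activates adult globin and red cell membrane genes through CACCC boxes, NFE2 binds globin control regions with small Maf proteins, and GFI1B is a repressor that recruits the demethylase LSD1. The erythropoietin receptor signals through JAK2 and STAT5 and keeps late progenitors and early erythroblasts alive. Ter119 marks erythroblasts and red cells and is low or missing on earlier erythroid cells. Several of the same factors also work in megakaryocytes, mast cells, eosinophils and blood stem cells.

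Promoter sequences are shown for 4 genes whose signals were lower in the medium phase, since GATA and CACCC motifs are the elements through which these factors are known to act on each other's genes. RefSeq (build GRCm38.p6) gave 7 promoters for 6 of the 8 genes, Nfe2 and Lmo2 not among them. Each line holds the 250 bases before the transcription start, and capitals mark matches to the GATA motif (NGATAN with A or T first and A or G last) or to the CACCC box (CCNCNCCC) on either strand.
Gata1 promoter, chrX:7967911-7968160, minus strand: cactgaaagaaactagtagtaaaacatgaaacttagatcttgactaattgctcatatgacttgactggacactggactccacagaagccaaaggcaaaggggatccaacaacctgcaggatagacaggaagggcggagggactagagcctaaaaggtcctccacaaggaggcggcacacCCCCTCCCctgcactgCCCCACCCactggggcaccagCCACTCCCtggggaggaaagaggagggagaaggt
Klf1 promoter, chr8:84901732-84901981, plus strand: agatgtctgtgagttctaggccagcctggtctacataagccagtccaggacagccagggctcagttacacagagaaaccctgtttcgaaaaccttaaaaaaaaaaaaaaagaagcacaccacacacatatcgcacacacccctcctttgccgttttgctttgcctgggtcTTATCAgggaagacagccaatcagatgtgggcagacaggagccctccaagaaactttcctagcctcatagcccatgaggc
Epor promoter, chr9:21963577-21963826, minus strand: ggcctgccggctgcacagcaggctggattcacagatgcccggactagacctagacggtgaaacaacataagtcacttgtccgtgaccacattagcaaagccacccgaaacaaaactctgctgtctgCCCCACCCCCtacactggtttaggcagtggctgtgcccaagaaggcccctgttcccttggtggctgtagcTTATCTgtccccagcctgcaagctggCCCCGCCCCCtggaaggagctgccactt
Gfi1b promoter, chr2:28621983-28622232, minus strand: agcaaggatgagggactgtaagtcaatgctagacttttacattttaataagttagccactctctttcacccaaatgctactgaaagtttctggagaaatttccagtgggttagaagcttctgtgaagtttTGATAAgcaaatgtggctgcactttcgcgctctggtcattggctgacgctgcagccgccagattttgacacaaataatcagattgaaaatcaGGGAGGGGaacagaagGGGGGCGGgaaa
The Klf1 promoter held a GATA match at -80 to -75 from the start, that of Epor at -54 to -49 and that of Gfi1b at -120 to -115. The Gata1 window held none, and instead 3 CACCC matches between -71 and -27. Over the 7 member promoters, 4 held a GATA match, against 26.5% of 32851 mouse promoters of the same window, and 5 held a CACCC match, against 45.9%. CACCC matches can overlap each other and GC boxes. The E-box letters CAGATG or CAGCTG were found in 2 of the 7 promoters (25.5% of all) and the NF-E2 core TGAGTCA in 0 (4.46% of all). These matches describe letters, not bound sites.

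The arrays as a whole set the scale for what follows. Median signals over all 45101 probe sets ranged from 5.60 to 5.68 in WT, from 5.43 to 5.60 in E and from 6.24 to 6.28 in M, and the RNA spike-ins added before labelling averaged 8.94 to 9.27, 9.03 to 9.20 and 9.88 to 10.44 in the same groups. M arrays lay at root mean square distances of 1.097 to 1.351 (log2) from WT arrays over 9097 genes tested, while WT and E arrays were 0.318 to 0.339 apart. Within M, the distance between arrays was between 0.215 and 0.442, and M replicate 3 was the array that stood off from the other two. Adjusted p-values are from limma (moderated test over all 9 arrays, Benjamini-Hochberg over the 9097 genes at or above the median brightness) and a gene was called under 0.05. All 8 members passed that brightness filter, in WT and E as well as in M. In bulk RNA, fewer cells of a type and less RNA per cell cannot be told apart.

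Every one of the 8 genes read well over the median of its array in all 9 arrays, in cells sorted without Ter119 or CD45.1. A check of the purity of the sort is not given in the sources used here. Against the labelled cell type, 13 mesenchymal stromal genes averaged 7.94 (log2) in WT, 8.03 in E and 11.64 in M. Their summed linear signal was 15500 to 18400 in WT, 21300 to 23300 in E and 80600 to 95000 in M. The brightest in WT and E was Col1a2 (13.62 and 14.03), which weighs most in those sums. Between E and WT the median of the 12 tested was 0. Only Col1a1 (0.66, limma adjusted p = 0.038) and Col1a2 (0.40, 0.0179), named after their values were seen, were called higher in E. The same sum for 22 late erythroid genes, the products that mature red cells need, was 177000 to 194000 in WT, 165000 to 174000 in E and 115000 to 208000 in M. Signals of different probe sets are not calibrated against each other, so these sums compare groups within a list only. In the 15 gene lists fixed beside the members, no gene was listed at exactly 0 in any array.

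Gata1, the master regulator (X chromosome, 7959260 to 7976663, GRCm38.p6), read 11.94, 12.05 and 12.27 in WT, 12.15, 12.17 and 12.19 in E, and 11.33, 11.28 and 11.09 in M. All M arrays lay below all others, and E and WT overlapped. Its signal fell in M to 11.23 ± 0.13, against 12.09 ± 0.17 in WT (SD, n = 3), a log2 difference of -0.86 (95% interval -1.06 to -0.65, limma adjusted p = 1.20e-05). Epor (chromosome 9, 21958897 to 21963576) read 10.17, 10.10 and 10.23 in WT, 10.18, 10.32 and 10.28 in E, and 9.42, 9.26 and 9.47 in M. The receptor gene thus showed the same separation of M from both other groups, with M replicate 3 the highest of its 3 arrays. Epor was 9.38 ± 0.11 in M and 10.16 ± 0.07 in WT (SD, n = 3), a difference of -0.78 (interval -0.97 to -0.59, limma adjusted p = 1.49e-05). The repressor gene Gfi1b (chromosome 2, 28609450 to 28621982) read 11.79, 11.93 and 11.94 in WT, 11.84, 11.90 and 12 in E, and 11.26, 11.22 and 10.92 in M. Its M arrays also lay below every WT and E array, by 0.53 or more from the lowest WT array. Gfi1b was 11.13 ± 0.19 in M and 11.89 ± 0.08 in WT (SD, n = 3), a difference of -0.76 (interval -0.97 to -0.55, limma adjusted p = 3.64e-05).

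Klf1, the activator of adult globin genes (chromosome 8, 84901982 to 84905291), read 13.88, 13.88 and 14.12 in WT, 13.88, 13.97 and 13.93 in E, and 13.70, 13.63 and 12.86 in M. Replicates 1 and 2 of M lay just under the WT range, and replicate 3 lay far under it. The difference of M from WT was -0.56 (interval -0.95 to -0.17, limma adjusted p = 0.0147), and -0.30 without M replicate 3 (adjusted p = 0.00196). The call was lost without WT replicate 3 (-0.48, adjusted p = 0.0600). Zfpm1, which encodes the GATA1 cofactor FOG1 (chromosome 8, 122281856 to 122337862), read 11.73, 11.74 and 11.77 in WT, 11.70, 11.73 and 11.75 in E, and 11.33, 11.20 and 10.44 in M. WT and E together spanned less than the gap to the nearest M array. Zfpm1 differed by -0.76 between M and WT (interval -1.15 to -0.37, limma adjusted p = 0.00282), and by -0.48 without M replicate 3 (adjusted p = 6.67e-06). A dimmer second probe set of Zfpm1 read 7.48, 7.93 and 7.99 in WT, 7.88, 7.73 and 7.58 in E, and 7.10, 7.13 and 6.17 in M. It gave the same direction, with a difference of -1 between M and WT in a limma fit of every probe set (adjusted p = 0.00558).

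Lmo2, the bridging protein gene of the TAL1 complex (chromosome 2, 103957903 to 103981878), read 13.41, 13.52 and 13.54 in WT, 13.47, 13.57 and 13.48 in E, and 13.32, 13.18 and 12.73 in M. The highest M array lay 0.09 under the lowest WT array. Lmo2 differed by -0.41 between M and WT (interval -0.69 to -0.14, limma adjusted p = 0.0111), by -0.24 without M replicate 3 (adjusted p = 0.00319), and by -0.28 after quantile normalization, where the call was lost (adjusted p = 0.0532). Tal1, the partner that LMO2 ties to GATA1 (chromosome 4, 115056426 to 115071755), read 13.01, 13.02 and 13.03 in WT, 12.92, 12.98 and 12.96 in E, and 13.18, 13.03 and 12.24 in M. Its WT arrays were almost identical, while the M arrays lay on both sides of them. The difference of M from WT, -0.20 (interval -0.61 to 0.20, limma adjusted p = 0.340), did not pass, and it was 0.08 without M replicate 3 (adjusted p = 0.200). Under median centring of the arrays or scaling on the spike-ins, Tal1 was called lower in M (-0.83 and -1.21, adjusted p = 0.000336 and 1.70e-10). The medians over all genes tested were then -0.82 and -1.20, close to the Tal1 values, and 6639 and 7222 of 9097 genes were called lower.

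Nfe2, the globin control region factor (chromosome 15, 103248212 to 103258403), read 10.03, 10.14 and 10.24 in WT, 9.75, 9.84 and 9.77 in E, and 10.58, 10.72 and 9.79 in M. Its E arrays lay under all WT arrays, and 2 of its 3 M arrays lay above them. Nfe2 averaged 10.37 ± 0.50 in M and 10.14 ± 0.10 in WT (SD, n = 3), a difference of 0.23 that did not pass (interval -0.19 to 0.65, limma adjusted p = 0.306). Without M replicate 3 it was called higher in M (0.52, adjusted p = 9.56e-05), whereas spike-in scaling gave a call in the other direction (-0.78, adjusted p = 0.000399). Under that scaling the median over all genes tested was -1.20 between M and WT.

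**Figure D1:**
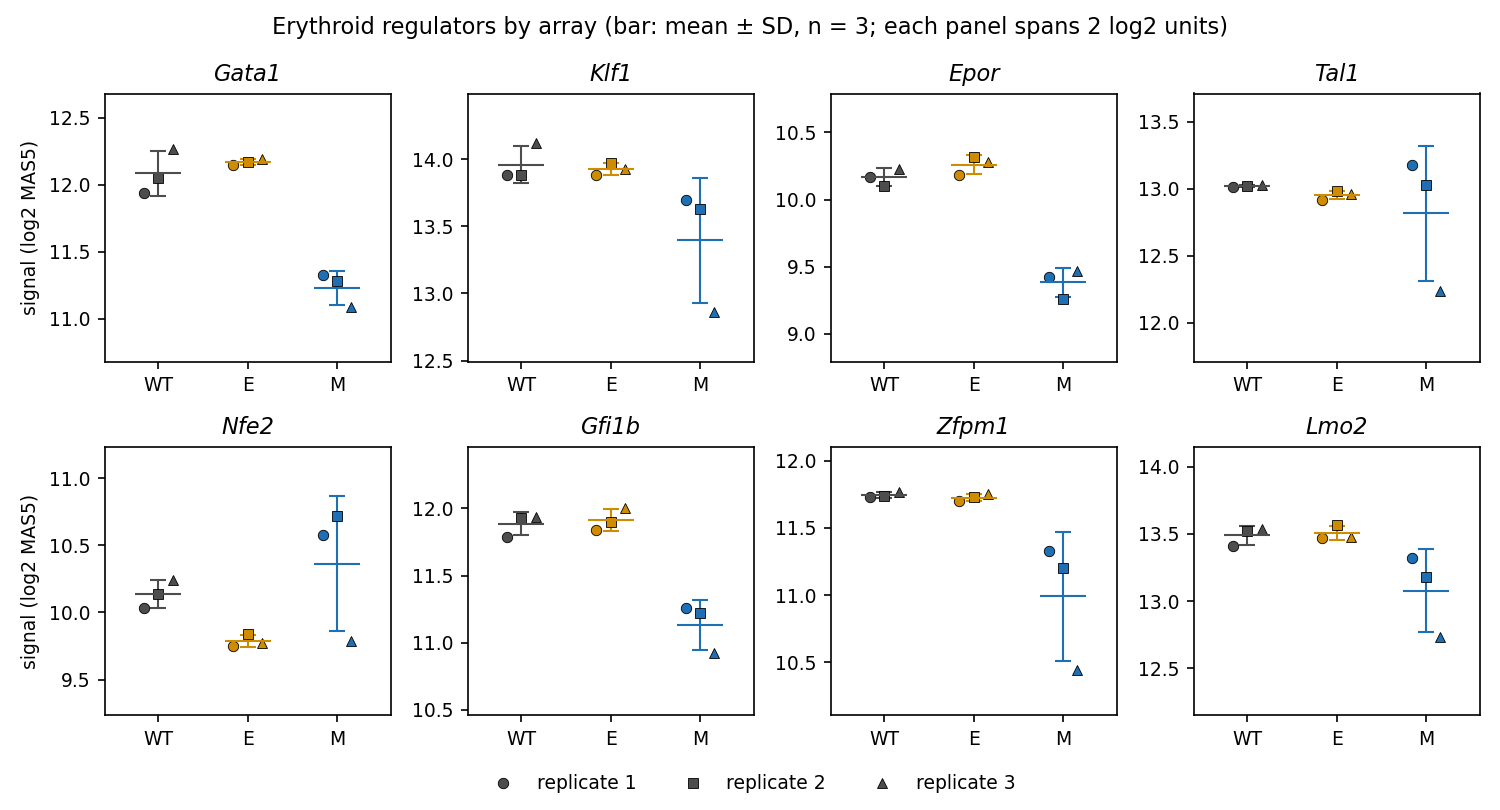
Signal (log2 MAS5) of the 8 genes in each of the 9 arrays by group, with marker shapes for replicates and bars for the mean ± SD (n = 3). Gata1, Epor and Gfi1b are lower in all M arrays than in any other array, while M replicate 3 lies below the other M arrays in Klf1, Tal1, Nfe2, Zfpm1 and Lmo2.

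The comparison of M with WT asks how the sorted cells differ once leukemia is established. Of the 8 members, 6 were called lower in M, where 43.5% of the 9097 genes tested were called lower. None was called higher, where 25.3% of genes were, and 68.8% were called in either direction. The same 6 had an unadjusted p under 0.05, as had 71.5% of genes. In the same 6 genes the M arrays lay below all WT arrays, as did those of 45.5% of genes tested. The median difference over the members was -0.66, beside -0.19 over all genes tested. Under quantile normalization these medians were -0.56 and -0.28, after median centring -1.29 and -0.82, and after spike-in scaling -1.67 and -1.20. Of all calls between M and WT, 63.2% were lower in M, and 69.4%, 84.0% and 88.2% under the same 3 settings. Genes called lower numbered 3953 of the 9097 tested, and 4624, 6639 and 7222 under those settings. Without M replicate 3 the members' median was -0.39, beside -0.16 over all genes.

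The comparison of M with E asks what changes between the early and medium phases. Again 6 members were called lower in M, where 43.9% of genes were and 70% were called in either direction, and the arrays of the same 6 genes did not overlap (45.9% of genes). Gata1 differed by -0.94 (limma adjusted p = 4.78e-06), Epor by -0.88 (5.04e-06), Gfi1b by -0.78 (2.45e-05) and Zfpm1 by -0.74 (0.00321). Lmo2 (-0.43, adjusted p = 0.00853) and Klf1 (-0.53, adjusted p = 0.0193) were also called. The call of Klf1 was lost without E replicate 2 or 3 (adjusted p = 0.0567 and 0.0502), and after quantile normalization so were those of Klf1 (-0.37, adjusted p = 0.0624) and Lmo2 (-0.25, adjusted p = 0.0806). Nfe2 was the member called higher, at 10.37 ± 0.50 in M and 9.79 ± 0.05 in E (SD, n = 3), a difference of 0.58 (interval 0.15 to 1.00, limma adjusted p = 0.0193), where 26.1% of genes were called higher, although its arrays overlapped (27.2% of genes were higher without overlap). With it, 7 members had an unadjusted p under 0.05, as had 72.3% of genes. The Nfe2 call was lost without E replicate 1 or 3 or M replicate 1 or 2 (adjusted p between 0.0517 and 0.0779). It was also lost under quantile normalization (0.51, adjusted p = 0.0587), and spike-in scaling gave a difference of -0.44 (adjusted p = 0.0465). The median over all genes tested was -1.21 under that scaling. Tal1 (-0.14, adjusted p = 0.517) was not called. The comparisons of M with WT and of M with E share the M arrays.

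Setting E against WT asks what is already different when leukemic cells are still few. No member was called by limma, where 2.11% of genes were (0.462% higher and 1.65% lower), and 0 of the 8 had an unadjusted p under 0.05 (14.1% of genes). The median over the members was 0.00, beside 0.01 over all genes. Intervals of the difference were -0.12 to 0.29 for Gata1, -0.10 to 0.29 for Epor, -0.19 to 0.23 for Gfi1b and -0.25 to 0.29 for Lmo2. They were wider for Klf1 (-0.42 to 0.36), Zfpm1 (-0.41 to 0.37) and Tal1 (-0.47 to 0.34), whose spread in the fit includes that of the M arrays. Arrays did not overlap in Tal1, lower in E by 0.07, and in Nfe2 (14.7% of genes were lower without overlap). Nfe2 was 9.79 ± 0.05 in E and 10.14 ± 0.10 in WT (SD, n = 3), a difference of -0.35 (interval -0.77 to 0.08, limma adjusted p = 0.467). It was called without M replicate 3 (adjusted p = 0.0111), with array weights (0.036) and with the WT and E arrays alone in the fit (0.0156), but not without M replicate 1 (0.447) or M replicate 2 (0.379).

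**Figure D2:**
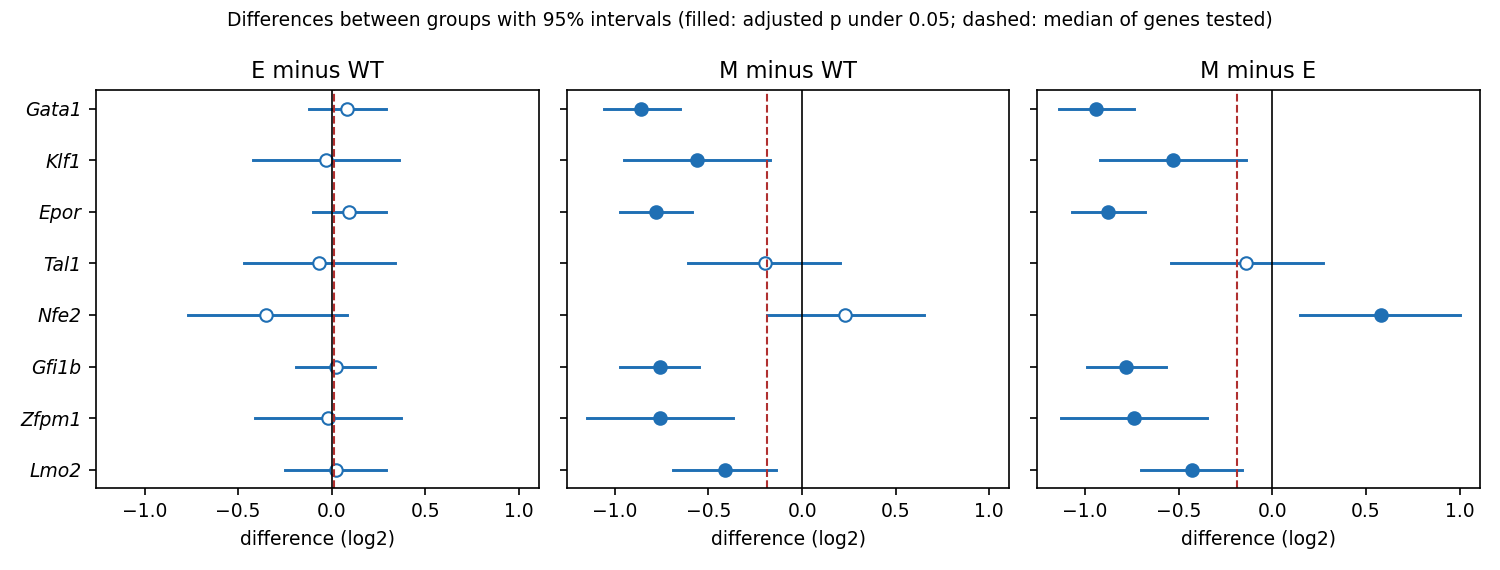
Log2 differences of the 8 genes with 95% intervals for E minus WT, M minus WT and M minus E, where filled points are called and the dashed line is the median of all genes tested. The 6 genes called lower in M lie left of the dashed line in both comparisons with M, while Nfe2 lies to the right of it.

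Differences between 2 genes within the same array do not depend on a constant shift of that array, such as median centring or spike-in scaling. Taken so, Nfe2 minus any of the 7 other members was higher in all M arrays than in all WT arrays, by 0.43 (against Tal1) to 1.09 (against Gata1) on average. In E the same 7 differences were all lower than in WT, with changes of -0.44 to -0.28. After quantile normalization, which can move these differences, all 7 again stood apart in both comparisons, with changes of 0.26 to 1.11 in M and -0.42 to -0.22 in E. Among the 9089 genes tested that are no members, 25.4% were likewise higher against those 7 genes in M, 6.10% were likewise lower in E, and 3.81% (346 genes) did both. Among Gata1, Epor and Gfi1b, the 3 differences changed by -0.10 to -0.02 between M and WT, with arrays that overlapped in each. After quantile normalization the changes were 0.17 for Gata1 minus Epor, -0.09 for Gata1 minus Gfi1b and -0.26 for Epor minus Gfi1b, again with overlap, and against E the M arrays of Gata1 minus Gfi1b stood apart (-0.16, values as deposited). Small average changes were not particular to these 3 genes. Between M and WT, Gata1 minus Zfpm1 changed by -0.10, Epor minus Zfpm1 by -0.02 and Gfi1b minus Zfpm1 by 0 (values as deposited). In each of these pairs the M arrays lay on both sides of the WT arrays. Gata1 minus Tal1 was -1.85, -1.75 and -1.16 in M, against -1.07, -0.97 and -0.76 in WT, without overlap. With 3 arrays against 3, an exact permutation test of such a difference cannot give a p below 0.10, so these are given as values.

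**Figure D3:**
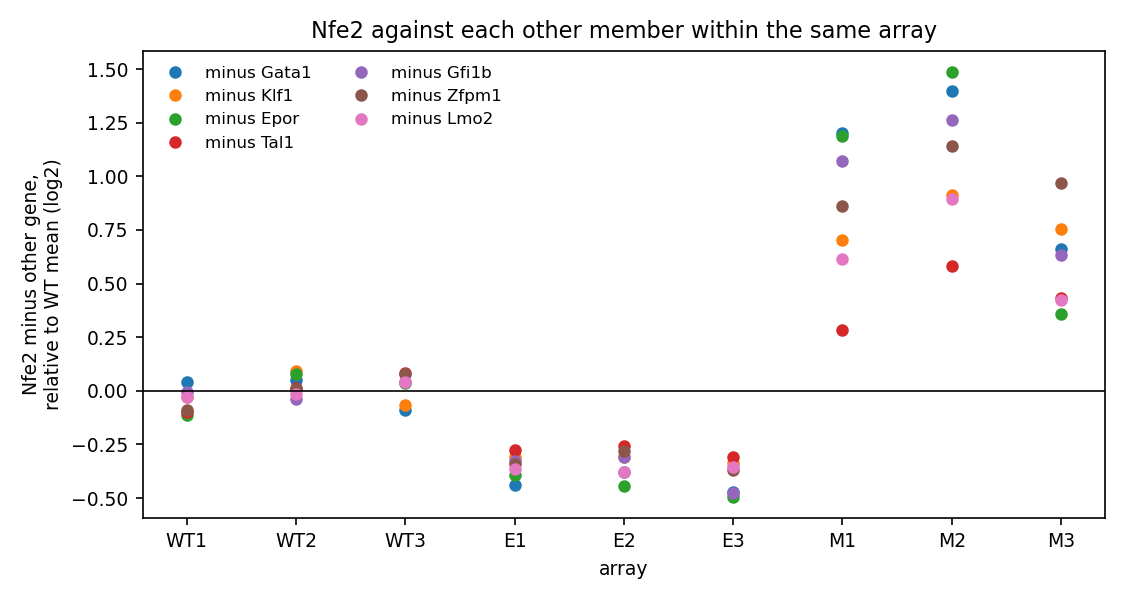
Nfe2 signal minus that of each other member in the same array, relative to the WT mean of that difference (log2), by array. All 7 differences are lower in the E arrays and higher in the M arrays than in the WT arrays.

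The M arrays differed among themselves in 5 of the members more than in the others. M replicate 3 minus the mean of M replicates 1 and 2 was -0.86 for Tal1, -0.86 for Nfe2, -0.83 for Zfpm1, -0.80 for Klf1 and -0.52 for Lmo2. It was -0.32 for Gfi1b, -0.22 for Gata1 and 0.13 for Epor, beside a median of -0.03 over the genes tested. Of the genes tested, 2.09% lay further down in M replicate 3 than Tal1 and 27.1% further down than Gata1. Late erythroid genes moved with this array. All 22 of them were lowest in M replicate 3 among the M arrays, with a median of -1.10, and their summed linear signal was 208000, 196000 and 115000 in M replicates 1, 2 and 3. The share of all genes tested that were lowest in that array was not counted. Pan-leukocyte genes had a median of 0.59 and mesenchymal stromal genes of 0.24 in the same contrast. The part of these lists in the spread of the members was not tested.

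**Figure D4:**
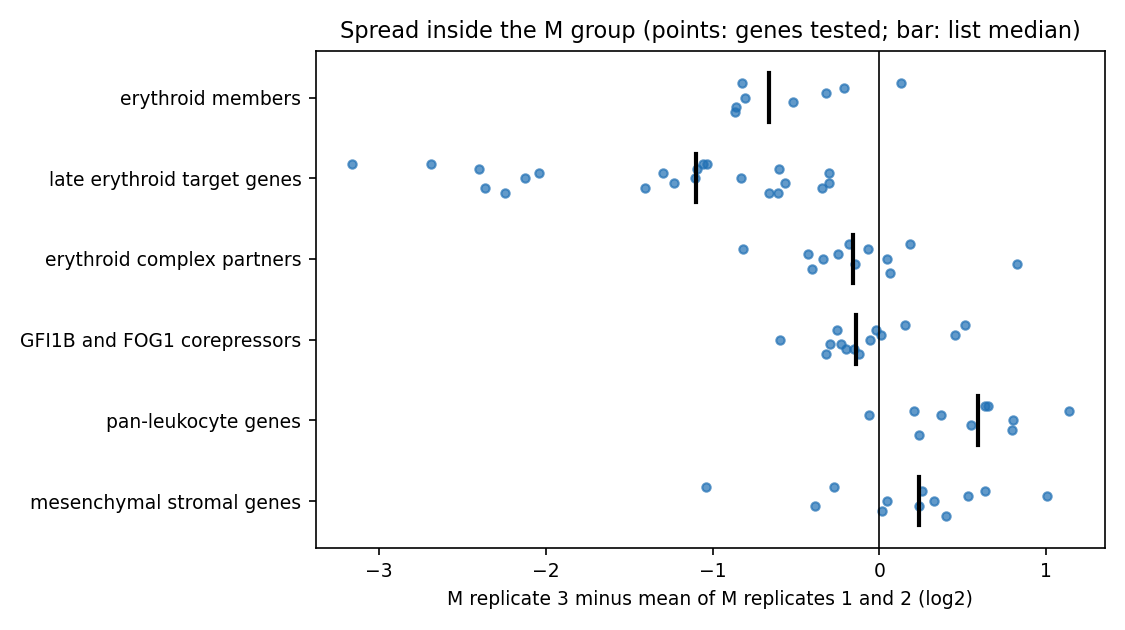
M replicate 3 minus the mean of M replicates 1 and 2 (log2) for the genes tested of 6 lists, with a bar at each list's median. The members and the late erythroid genes lie mostly left of 0, and the pan-leukocyte genes to the right.

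Of 12 genes of the TAL1 and GATA1 complex, 6 were called lower in M than in WT and 2 higher, with a median of -0.22. Over all genes tested, 43.5% were called lower and 25.3% higher, with a median of -0.19. Median centring and spike-in scaling each gave 10 lower and 1 higher (medians -0.84 and -1.23, beside -0.82 and -1.20 over all genes tested). Under these settings 6639 and 7222 of the 9097 genes tested were called lower. Tcf3, which encodes the E2A partner of TAL1, differed by -1.01 (limma adjusted p = 6.34e-07), Lyl1, a close relative of Tal1, by -1.04 (7.63e-06) and Ssbp3, which stabilises LDB1, by -0.99 (4.96e-06). Ldb1 itself, the dimerising core of the complex, differed by -0.58 (adjusted p = 0.00308). The 2 higher genes were Lmo4 (1.63, limma adjusted p = 6.8e-05) and Runx1 (0.85, 6.65e-05), named after their values were seen. Gata2, which precedes Gata1 in progenitors, was 8.59 ± 0.30 in M and 8.51 ± 0.15 in WT (SD, n = 3) and did not pass (0.08, limma adjusted p = 0.639). Of 14 tested corepressor genes of GFI1B and FOG1, 11 were called lower and 1 higher (median -0.48). Among the lower were Kdm1a, the LSD1 gene (-0.48, adjusted p = 3.92e-05), Mbd3 (-0.58, 8.51e-05) and Mta2 (-1.01, 1.63e-05), the last 2 of the NuRD complex. The 1 higher gene was Ctbp2 (1.17, limma adjusted p = 3e-05), named after its values were seen. Mbd3 was the 1 corepressor gene called in E, where it was higher (0.43, adjusted p = 0.0234), and in 9 of 23 alternatives, spike-in scaling among them, 0 were.

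Genes of NFE2 partners and relatives differed the other way. Of 6 tested, 5 were called higher in M than in WT and 0 lower (25.3% and 43.5% of all genes tested), with a median of 0.57. This median became -0.06 after median centring and -0.45 after spike-in scaling, beside -0.82 and -1.20 over all genes tested. The small Maf genes Mafk and Mafg, whose proteins pair with NFE2, differed by 0.59 and 0.54 (limma adjusted p = 0.000176 and 0.000290), and Bach1, a heme-sensitive repressor at NFE2 sites, by 0.93 (6.50e-07). With spike-in scaling 0 of the 6 were called higher and 3 lower, where 966 of the 9097 genes tested were called higher and 7222 lower. In E, 0 of the 6 were called.

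Downstream of the erythropoietin receptor, 9 of 15 tested genes were called higher in M than in WT and 4 lower, with a median of 0.50. Over all genes tested, 25.3% were called higher and 43.5% lower. The list median was -0.13 with arrays centred on the median and -0.51 with spike-in scaling, beside -0.82 and -1.20 over all genes tested. Socs3 and Socs2, feedback inhibitors of cytokine receptors, differed by 5.06 and 2.93 (limma adjusted p = 3.76e-09 and 2.16e-08), the kinase gene Pim1 by 1.49 (8.49e-07), the STAT5 target Cish by 1.76 (2.33e-06) and the survival gene Bcl2l1 by 1.00 (0.00237). These genes answer to other cytokine receptors too. Stat5a, the transcription factor gene of the pathway, was called lower (-0.79, adjusted p = 1.91e-05), and the kinase gene Jak2 did not pass (11.02 ± 0.03 in M and 11.10 ± 0.03 in WT, SD, n = 3, limma adjusted p = 0.312). In E, 1 of the 15 was called, Podxl, a sialomucin gene (1.22, adjusted p = 0.0179), named after its values were seen.

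Among 15 further erythroid regulators, 7 were called lower in M than in WT and 3 higher (median -0.14, and 0.12 without M replicate 3). Of all genes tested, 43.5% were called lower and 25.3% higher. Median centring gave 12 lower and 2 higher (median -0.77), and spike-in scaling 13 lower and 1 higher (median -1.15). The medians over all genes tested were -0.82 and -1.20 under these settings, where 6639 and 7222 of the 9097 were called lower. Ikzf1, the Ikaros gene, differed by -0.61 (limma adjusted p = 5.56e-06), Bcl11a, a repressor of fetal globin, by -0.76 (1.07e-05) and the antiproliferative gene Btg2 by 0.99 (3.19e-05). In E, in contrast, Btg2 fell, to 9.97 ± 0.16 against 11.12 ± 0.18 in WT (SD, n = 3, limma adjusted p = 0.000577). It was 1 of 2 of the 15 called lower in E, where 1.65% of genes tested were (1 to 4 in the alternatives). The other was Sox6 (-1.02, limma adjusted p = 0.0496), named after its values were seen.

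Late erythroid genes, known targets of the members, were followed beside them. In M, 5 of 22 were called lower than in WT and 0 higher (median -0.20), where 43.5% of genes tested were called lower and 25.3% higher. Without M replicate 3 the counts were 5 lower and 8 higher (median 0.04), where 43.7% of genes were called lower and 25.9% higher. After median centring 15 and after spike-in scaling 20 were lower, as were 6639 and 7222 of the 9097 genes tested. Cldn13 (-0.60, limma adjusted p = 0.00240) and the water channel gene Aqp1 (-0.29, 0.00937) were among those lower. The heme synthesis gene Alas2 was at 10.61 ± 1.83 in M and 9.82 ± 0.11 in WT (SD, n = 3, limma adjusted p = 0.300). Its M arrays read 11.74, 11.58 and 8.50, on both sides of the WT arrays (9.69, 9.86 and 9.90). The anion exchanger gene Slc4a1 was at 13.36 ± 1.18 and 13.38 ± 0.11 (adjusted p = 0.968), with M arrays at 14.09, 13.99 and 12. In E, Alas2 averaged 7.73 (-2.09 from WT, limma adjusted p = 0.162) and Slc4a1 12.18 (-1.20, 0.219). In E, 0 of the 22 were called (median -0.20), where 2.11% of genes tested were. The E arrays nevertheless lay under all WT arrays in 12 of the 22 (14.7% of genes tested). Without M replicate 3, 10 were called lower in E, where 6.08% of all genes tested were called lower and 9.19% in either direction. Of the members, Nfe2 was the gene with an E call under that setting. Of the 2 tested globin genes, Hbb-b2 was called higher in M (11.23 ± 1.96 in M and 9.55 ± 0.24 in WT, SD, n = 3, limma adjusted p = 0.0498) and Hba-a2 was not (-0.08, 0.695). The M arrays of Hbb-b2 read 12.21, 12.50 and 8.98, the last under every WT array (9.48, 9.82 and 9.36). In 14 of 22 alternatives, quantile normalization and median centring among them, 0 globin genes were called higher. Globin probe sets can share sequence between copies.

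**Figure D5:**
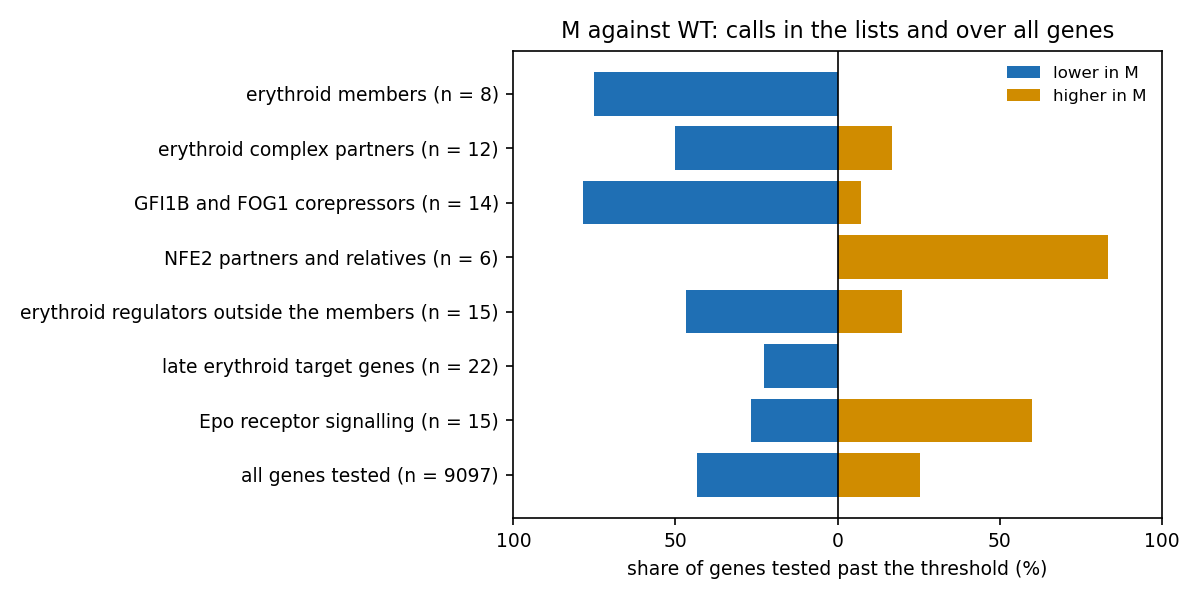
Share (%) of the genes tested in each list that were called lower (left) or higher (right) in M against WT, with all 9097 genes in the bottom row. Members, complex partners and corepressors show more lower than higher calls, and NFE2 partners and erythropoietin receptor signalling the reverse, which turned for both with spike-in scaling (0 higher and 3 lower, 5 higher and 7 lower).

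Markers of other cells that use these factors were counted as well. Over all genes tested, 25.3% were called higher in M than in WT and 43.5% lower. The brightness filter used the mean of all 9 arrays, so a gene under log2 6.83 in WT and E could pass through M. Mycn (4.53 in WT, 6.60 in E and 10.80 in M), Procr (6.66, 6.34 and 10.22) and Selp (6.57, 5.99 and 8.05) did so. For such genes the filter favoured a higher call, so counts of genes tested lean that way. The sums take every gene on the array. Of 9 tested megakaryocyte genes, 7 were called higher in M than in WT and 2 lower, with summed linear signals of the 15 genes on the array of 5220 to 8160 in M and 2120 to 2330 in WT. Thbs1, at 10.95, 10.91 and 12.20 (log2), was the brightest of the 15 in each M array and weighs most in the M sums. Thbs1 (4.18, limma adjusted p = 4.31e-07), Clec1b (1.52, 1.86e-05) and Selp (1.47, 0.000926) led them by the test over all 3 groups, while the platelet genes Pf4 (0.64, 0.00101) and Itga2b (0.93, 0.00236) differed less. The 2 lower genes were the platelet glycoprotein genes Gp9 (-1.06, 0.000147) and Gp5 (-0.70, 0.00575), named after their values were seen. Mast cell and basophil genes summed to 4340 to 7080 in M and 2570 to 3160 in WT, with 4 of 6 called higher and 1 lower, among them Mcpt8 (3.27, 1.25e-06), Cpa3 (1.49, 0.000116) and Mitf (1.34, 0.000765). Eosinophil genes summed to 3320 to 5160 in M, 3370 to 4140 in E and 962 to 1130 in WT, and both tested, Prg2 and Ear3, were called higher in E (1.62 and 2.30, adjusted p = 9.70e-05 each) and in M (1.78 and 2.42, 5.88e-07 and 9.19e-07). Stem and progenitor genes summed to 8150 to 11400 in M and 3150 to 3900 in WT, with 5 of 6 called higher and 1 lower, and with Cd34 (2.86, 5.16e-07), Procr (3.55, 3.03e-07) and Mycn (6.27, 1.61e-06) in front. The 1 lower gene, here and in the mast cell list, was the receptor gene Kit (-0.30, limma adjusted p = 0.0386), named after its values were seen.

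Endothelial genes, a cell type in which Lmo2 and Tal1 are also known to act, summed to 2900 to 3880 in M and 1360 to 1450 in WT, with 3 of 4 tested called higher and 1 lower. Erg (1.09, limma adjusted p = 0.000313), Esam (1.77, 3.40e-05) and Cldn5 (1.64, 0.000137) were those called higher. The 1 lower gene was Eng (-0.35, 0.00577), the brightest of the list in WT (9.47), named after its values were seen. Esam lay under the brightness filter in its WT and E means (6.28 and 6.55) and passed it through M (8.04). Of 12 tested mesenchymal stromal genes, 12 were called higher in M than in WT, among them Cxcl12 (4.16, 4.91e-11), Col3a1 (4.21, 8.75e-11) and Pdgfrb (5.53, 9.90e-10). Pan-leukocyte genes summed to 10300 to 17700 in M and 6120 to 6620 in WT, with 8 of 10 called higher and 1 lower. Ptprc, the CD45 gene, differed by 0.87 (adjusted p = 0.00192), and Tyrobp, Lcp1 and Coro1a by 1.48, 1.55 and 1.18 (8.70e-06, 1.22e-05 and 2.06e-05). The 1 lower gene of this list was Was (-0.51, limma adjusted p = 0.000451), named after its values were seen. Among regulators of other blood lineages, 3 genes were tested, of which Fli1 (2.01, 1.38e-07) and Gfi1 (3.16, 1.51e-05) were called higher and Irf8 (-1.07, 0.00168) lower in M. Gfi1 lay under the brightness filter in its WT and E means (5.86 and 5.71) and passed it through M (9.01). Spi1, the PU.1 gene that opposes GATA1, averaged 6.87 ± 0.35 in M and 5.88 ± 0.39 in WT (SD, n = 3) and lay under the brightness filter in its mean. Scaling changed the balance in some of these lists, and spike-in scaling called 966 of the 9097 genes tested higher and 7222 lower in M than in WT. With spike-in scaling, 1 megakaryocyte gene was called higher and 2 lower (median -0.05), 4 pan-leukocyte genes higher and 3 lower (median 0.02), 2 mast cell genes higher and 2 lower, and 10 mesenchymal genes higher and 0 lower. The medians of the mesenchymal, eosinophil, endothelial and stem and progenitor lists stayed above 0 under that scaling (2.94, 1.09, 0.36 and 0.88). The part of these cell types in the lower signals of the 6 members was not tested.

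Likeness of pattern was measured as the root mean square difference between log2 values centred on each gene's mean, over the 9 arrays. Nearest to Gata1 were Cdk4, a kinase of the G1 phase (0.054), and Cenpa, the centromere histone (0.057), and nearest to Epor were the proteasome subunit gene Psmb3 (0.058) and Mzt2 (0.060). Gfi1b lay nearest to Nup210, a nuclear pore gene (0.043), and Hcfc1 (0.050). For Lmo2 these were the replication licensing gene Cdt1 (0.044) and Arel1 (0.050), and for Zfpm1 the licensing gene Cdc6 (0.063) and Tspan8 (0.068). Klf1 had Slc22a23 and Plcl2 at 0.059 each, and Tal1 had Mtfr1 (0.061) and Otud5 (0.069). Nfe2 had no neighbour as close, with the autophagy protease gene Atg4a at 0.109 and the histone demethylase gene Kdm7a at 0.112. Among the members themselves, Gfi1b ranked 68 of 9096 genes in likeness to Gata1, and Lmo2 and Zfpm1 ranked 57 and 61 in likeness to Klf1. Other members lay further off, with Epor at rank 317, Zfpm1 at 1513, Klf1 at 2159, Lmo2 at 2402, Tal1 at 4782 and Nfe2 at 6992 in likeness to Gata1, and Epor at 3781 in likeness to Klf1. The member nearest to Nfe2 was Tal1, at rank 632.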

How the data were processed

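The series holds 9 arrays, 3 each of WT, E and M. The values deposited by the authors are on a log2 scale and, by the submitters' processing notes, come from MAS5 (version not given), and the linear signals of each array have the same trimmed mean, 500. Values were used as deposited. A single gene symbol was given for 34958 of 45101 probe sets, and the probe set with the highest mean over 9 arrays stood for its gene. The 9097 genes of 18194 at or above the median of gene means (log2 6.83) were fitted in R 4.3.3 by limma 3.58.1 (all 9 arrays in 1 model, moderated test with an intensity trend), with Benjamini-Hochberg adjustment over all genes tested and a threshold of 0.05. The pipeline was tested on simulated data. Arrays limit precision through their number, 3 a group. P-values measure the spread between the labelled biological replicates. The members, lists and tests were chosen with earlier results of these data known. Named genes were the 8 members, the 3 genes of each list with the smallest p over the 3 groups, a set of genes fixed by choice, and the 2 nearest in pattern to each member. Genes described as named after their values were seen come in addition to these. Alternatives were scaling, filter, pseudocount, spread, groups in the fit, probe sets, replicate block and single arrays left out. Promoter sequences are from RefSeq.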

Additional observations from a re-analysis of the deposited data

How the results depend on the processing

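Across 23 alternatives, Gata1, Epor, Gfi1b and Zfpm1 kept their direction and their call as lower in M against both WT and E. Members called lower in M numbered 5 to 6 against WT and 5 to 6 against E when single arrays were left out, members called higher 0 to 1 against WT and 0 to 2 against E, and members called lower in E against WT 0 to 1. With array weights, 1 member (Nfe2) was called higher in M than in WT and 1 (Nfe2 again) lower in E than in WT, as 1 was in the fit of WT and E alone. The 1 member called higher in M against E became 0 under quantile normalization, median centring and spike-in scaling. Genes called between E and WT numbered 192, and 118 with quantile normalization, 85 with the higher brightness filter, 848 with array weights, 756 with the 2 groups alone, 99 with the mean of probe sets and 98 to 836 with single arrays left out. Without M replicate 3 they were 836. That filter, with fewer genes tested, gave 3466 calls between M and WT and 3485 between M and E. Single arrays left out gave 5721 to 6334 and 5782 to 6462. Median centring moved the median of all genes to 0.14 between E and WT (0.01 as deposited), with 44% of calls lower against 78.1%, and spike-in scaling to -1.20 between M and WT. Of calls between M and E, 62.7% were lower, and 85.1% and 87.4% under those 2 settings.

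Signs turned as follows. Between M and WT, Nfe2 was at -0.40 with median centring and -0.78 with spike-in scaling, and Tal1 at 0.04 with array weights and 0.08 without M replicate 3. Between M and E, Nfe2 was at -0.19 with median centring and -0.44 with spike-in scaling, and Tal1 at 0.04 with quantile normalization, 0.11 with array weights and 0.15 without M replicate 3 (adjusted p = 0.0290). Single arrays left out moved Tal1 between -0.39 and 0.08 (M against WT) and between -0.32 and 0.15 (M against E), and, in E against WT, Klf1 between -0.07 and 0.05, Gfi1b between -0.02 and 0.06 and Lmo2 between -0.02 and 0.04. Between E and WT, where none of these passed, Lmo2 was at -0.03 with quantile normalization, Klf1, Tal1 and Zfpm1 at 0.10, 0.07 and 0.12 with median centring, Gfi1b and Lmo2 at -0.02 each without WT replicate 1, Klf1 at 0.05 without WT replicate 3, Lmo2 at -0.01 without E replicate 2 and Gfi1b at -0.02 without E replicate 3. Causes were not tested.

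With the replicate number as a block, 6 members were lower in M against WT (6100 genes called), 6 lower and 1 higher against E (6248) and 0 called in E against WT (153), and no member's call changed. Deviations of same-numbered arrays correlated at -0.098 to 0.084, and those of arrays with different numbers at -0.09 to 0.086. With 3 arrays a group, these values cannot show whether same-numbered arrays were handled together.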
